A study of Mus musculus with 2 samples.

Results

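Messenger RNA levels of 10 genes for AP-1 transcription factors were compared between 1 library of RAW264.7 cells from 3D culture and 1 library from 2D culture. The genes were Fos, Fosb, Fosl1, Fosl2, Jun, Junb, Jund, Atf3, Batf and Batf3, chosen by symbol from the 52550 gene identifiers that were counted, and all 10 were found. RAW264.7 is a macrophage-like line from a mouse tumour that Abelson virus had induced, and the cells of both groups were labelled as purified and untreated. The sources used here do not say how the 3D culture was set up. Read counts per gene summed to 16652503 for 3D culture and 14371084 for 2D culture; 3D and 2D stand for these libraries below. Counts were scaled with trimmed mean of M values (TMM) factors to counts per 1000000 (CPM). A gene was called measured at a mean of at least 1 CPM over both libraries, and 9 of the 10 genes reached it; Batf3 did not.

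AP-1 is a family of dimers built from basic leucine zipper proteins. JUN proteins pair with themselves or with FOS proteins, whereas FOS proteins need a JUN partner to bind DNA, and the dimers bind the element TGANTCA or the related cAMP response element. Most FOS and JUN genes are immediate early genes that MAP kinase signals induce within minutes, and in macrophages AP-1 takes part in inflammatory gene expression and in differentiation towards osteoclasts. ATF3 and the BATF proteins, which bind with JUN partners, change which genes the dimers act on.

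With 1 library per culture method there was no replicate error and no p-value was computed. Each ratio is 3D over 2D. It has an exact 95% interval that covers counting error only, and since the reads carry no molecular identifiers they need not be independent molecules. In bulk RNA, more cells with a transcript and more transcript per cell cannot be told apart. All 15 macrophage markers examined were measured, including Csf1r, at 1516 CPM in 3D and 495 CPM in 2D, and the summed CPM of these markers was 13364 in 3D and 4478 in 2D. Of the 15, 9 were at least 2-fold higher and 1, Ptprc, was lower, against 6 and 4 under total counts and 2 and 0 after the adjustment described below. Among all measured genes the shares were 18.7% higher and 20.8% lower. They were 5.59% and 36.5% under total counts, and 10.5% and 9.75% after adjustment. Macrophage markers with ratios under 1 that did not reach 2-fold were Itgam (0.731), Fcgr1 (0.687) and Aif1 (0.577). Markers of 9 other cell types had summed levels of 0.296 to 55.7 CPM in 3D and of 0.283 to 22.2 CPM in 2D. Most of the endothelial sum was Vwf, with 52.8 CPM in 3D and 20.2 CPM in 2D, while Emcn was at 0 in both. Of 8 hepatocyte markers, Alb had 232 counts in 3D and 8 in 2D, and the list summed to 23.1 and 1.30 CPM in these libraries. Ahsg (38 counts in 3D and 1 in 2D) and Apoa1 (24 and 1) went the way of Alb. Apoa2 went the other way, with 2 counts in 3D and 11 in 2D. Cyp3a11 was at 0 in 3D, and Ttr, Serpina1a and Fgb were at 0 in 2D. Cd3d, Cd3e, Cd3g, Cd8a and Trac of the T cell markers were at 0 in both libraries. The part of these other transcripts in the AP-1 values was not tested.

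The promoters of Fos, Junb and Jun are shown because these genes lie at different places in the order of ratios below. Each sequence runs from 250 bases before to 50 bases after the annotated start, was taken from RefSeq on GRCm38.p6 and is written 5′ to 3′ on the gene's strand. Capitals mark TGACG, the core of the cAMP response element, in Fos (chr12:85473640-85473939, plus strand) and Junb (chr8:84978699-84978998, minus strand), and TGACATCA, an AP-1-like element, in Jun (chr4:95052173-95052472, minus strand).
Fos: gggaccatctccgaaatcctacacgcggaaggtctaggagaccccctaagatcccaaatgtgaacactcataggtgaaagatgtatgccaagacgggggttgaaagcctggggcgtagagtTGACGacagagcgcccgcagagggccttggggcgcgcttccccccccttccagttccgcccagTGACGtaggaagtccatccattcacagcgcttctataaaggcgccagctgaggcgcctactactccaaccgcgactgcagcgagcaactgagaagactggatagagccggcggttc
Junb: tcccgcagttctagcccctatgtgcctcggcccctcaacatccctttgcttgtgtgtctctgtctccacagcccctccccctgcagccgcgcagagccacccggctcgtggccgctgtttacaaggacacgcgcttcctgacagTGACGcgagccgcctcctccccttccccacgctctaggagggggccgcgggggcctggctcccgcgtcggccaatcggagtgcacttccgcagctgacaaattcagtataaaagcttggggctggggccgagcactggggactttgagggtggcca
Jun: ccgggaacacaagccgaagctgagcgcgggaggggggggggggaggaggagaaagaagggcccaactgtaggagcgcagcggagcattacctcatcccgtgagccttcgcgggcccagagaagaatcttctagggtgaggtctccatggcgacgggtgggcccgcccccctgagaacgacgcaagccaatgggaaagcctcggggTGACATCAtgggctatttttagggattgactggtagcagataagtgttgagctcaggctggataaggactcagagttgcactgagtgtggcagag

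Both strands of each promoter were searched for the AP-1 element TGANTCA and the AP-1-like element TGACATCA. The cAMP response element was searched in full, as TGACGTCA, and by its core alone, TGACG, which the full element contains. The CArG box, which binds serum response factor, was searched too. The table held 9 of the 10 genes, all but Fosl1. None of the 9 promoters held TGANTCA, TGACGTCA or a CArG box within these 300 bases, elements that 7.81%, 1.79% and 1.63% of all 32851 promoters in the table held. TGACG was present for Fos, Fosb, Junb, Atf3 and Batf, an element in 20.8% of all promoters. Its first base lay at -129 and -66 from the start in Fos and at -106 in Junb. Only Jun had TGACATCA, at -45, against 3.62% of all promoters. The absence of a match says only that these letters are not in the window. For Jund the window ended at 70697788, upstream of the counted gene, which starts at 70698949. The sequence next to the counted start of Jund was therefore not searched.

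Under TMM scaling, Fos and Fosl1 of the FOS group and Junb and Jund of the JUN group were more than 3-fold higher in 3D. The counting intervals of Fos and Junb reached below 3. Under total counts the ratios were 2.42 for Fos, 2.94 for Fosl1, 2.00 for Junb and 3.03 for Jund. Fosb passed 2-fold narrowly under TMM scaling. Jun, Fosl2 and Atf3 then lay between 1.5-fold and 2-fold higher, and Batf was near equal. In all, 5 of 9 measured AP-1 genes were at least 2-fold higher, and 0 were lower by that much. Of all 11673 measured genes, 18.7% were higher by that much and 20.8% were lower. The median log2 ratio was 1.06 for the 9 genes and 0.05 for all measured genes. These counts hold under TMM scaling; under total counts 4 of the 9 were at least 2-fold higher against a background of 5.59%, and under scaling to 20 reference genes 4 against 9.59%.

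**Figure D1:**
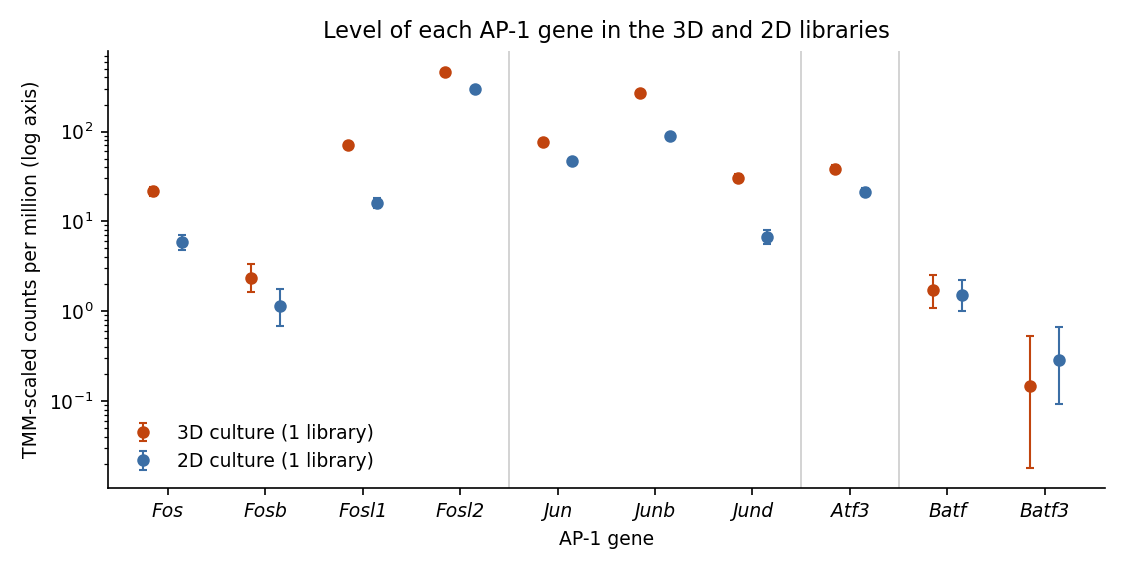
TMM-scaled CPM on a log axis for the 10 AP-1 genes in 3D (left point of each pair) and the 2D library (right point), with exact 95% Poisson intervals for counting error. Grey lines part the FOS group, the JUN group, Atf3 and the BATF group. Fosl2 and Junb have the highest levels in both libraries, at 465 and 269 CPM in 3D.

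Fos (ENSMUSG00000021250, chromosome 12, 85473890 to 85477273, GRCm38), the cellular form of a retroviral oncogene and the classic immediate early gene, had 292 counts in 3D and 104 in 2D. That was 21.6 CPM in 3D and 5.88 CPM in 2D, a 3.67-fold difference (95% interval 2.92 to 4.64). Fosl1 (ENSMUSG00000024912, chromosome 19, 5447547 to 5455946), which encodes FRA-1, a FOS protein that lacks the strong transactivation domain of FOS, had 964 counts in 3D and 283 in 2D. It stood at 71.2 CPM in 3D and 16.0 CPM in 2D, a 4.45-fold difference (3.90 to 5.10). Of its 2033 exonic bases, 1163 (57.2%) overlap exons of Ccdc85b on the opposite strand. Ccdc85b had 479 counts in 3D and 277 in 2D, a 2.26-fold difference (1.95 to 2.63). The sources used here do not give the strand setting of the counting, so reads from the shared bases cannot be told apart.

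Fosl2 (ENSMUSG00000029135, chromosome 5, 32135801 to 32157842) encodes FRA-2, which also lacks that domain. It was the AP-1 gene with the most reads, 6296 in 3D and 5315 in 2D. Its level of 465 CPM in 3D, against 301 CPM in 2D, gave a ratio of 1.55 (1.49 to 1.61), or 1.02 (0.985 to 1.06) under total counts. Fosb (ENSMUSG00000003545, chromosome 7, 19302696 to 19310051), whose transcripts also give the shorter protein ΔFOSB, had 32 counts in 3D and 20 in 2D. Levels were 2.36 CPM in 3D and 1.13 CPM in 2D, with a ratio of 2.09 (1.16 to 3.86). Other scalings gave 1.38 (total counts) and 1.63 (reference genes). Counts per gene do not separate its splice forms.

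Junb (ENSMUSG00000052837, chromosome 8, 84974484 to 84978718), a JUN protein that can oppose JUN on some promoters, had 3637 counts in 3D and 1568 in 2D. Its level was 269 CPM in 3D and 88.7 CPM in 2D, a 3.03-fold difference (2.86 to 3.22). Under total counts the ratio was 2.00 (1.89 to 2.13), at the edge of the 2-fold limit. Prdx2, on the opposite strand, overlaps 173 of its 2301 exonic bases and had a ratio of 2.66 (2.48 to 2.86). Jund (ENSMUSG00000071076, chromosome 8, 70698949 to 70700616), in many cells the most steadily expressed JUN gene, had 414 counts in 3D and 118 in 2D. Its level was 30.6 CPM in 3D and 6.67 CPM in 2D, and its ratio, 4.59 (3.73 to 5.68), was the highest of the 9 genes. The antisense gene Gm11175 overlaps 877 of the 1668 exonic bases of Jund and had 0 counts in both libraries. Without the strand setting of the counting, the effect of these overlaps on the counts of Junb and Jund is not known. RefSeq places the start of Jund further upstream, at 70697739, so the counted part of this gene depends on the annotation used.

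Jun (ENSMUSG00000052684, chromosome 4, 95049034 to 95052222), which encodes the partner shared by most AP-1 dimers, had 1045 counts in 3D and 828 in 2D. Its level was 77.2 CPM in 3D and 46.8 CPM in 2D. The ratio was 1.65 under TMM scaling, with a log2 interval of 0.59 to 0.86, and 1.09 (0.993 to 1.19) under total counts. The antisense gene Junos, which overlaps 232 exonic bases of Jun, went the other way, with 14 counts in 3D and 45 in 2D, a ratio of 0.407 (0.206 to 0.754). The limit of the unknown strand setting holds for Jun and Junos too. Atf3 (ENSMUSG00000026628, chromosome 1, 191170296 to 191218039), a stress-induced gene whose product dampens inflammatory transcription, had 523 counts in 3D and 374 in 2D. It stood at 38.6 CPM in 3D and 21.1 CPM in 2D, and its ratio of 1.83 (1.60 to 2.09) stayed under 2-fold. Under total counts the ratio of Atf3 was 1.21 (1.05 to 1.38).

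The BATF group, which is best known from lymphocytes and dendritic cells, was barely present. Batf (ENSMUSG00000034266, chromosome 12, 85686669 to 85709087) had 23 counts in 3D and 27 in 2D, a ratio of 1.11 (0.610 to 2.02), or of 0.735 (0.403 to 1.33) under total counts. Batf3 (ENSMUSG00000026630, chromosome 1, 191097847 to 191108945) had 2 counts in 3D and 5 in 2D, a ratio of 0.523 with an interval of 0.0498 to 3.19. A difference of either gene was not detectable at this depth.

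**Figure D2:**
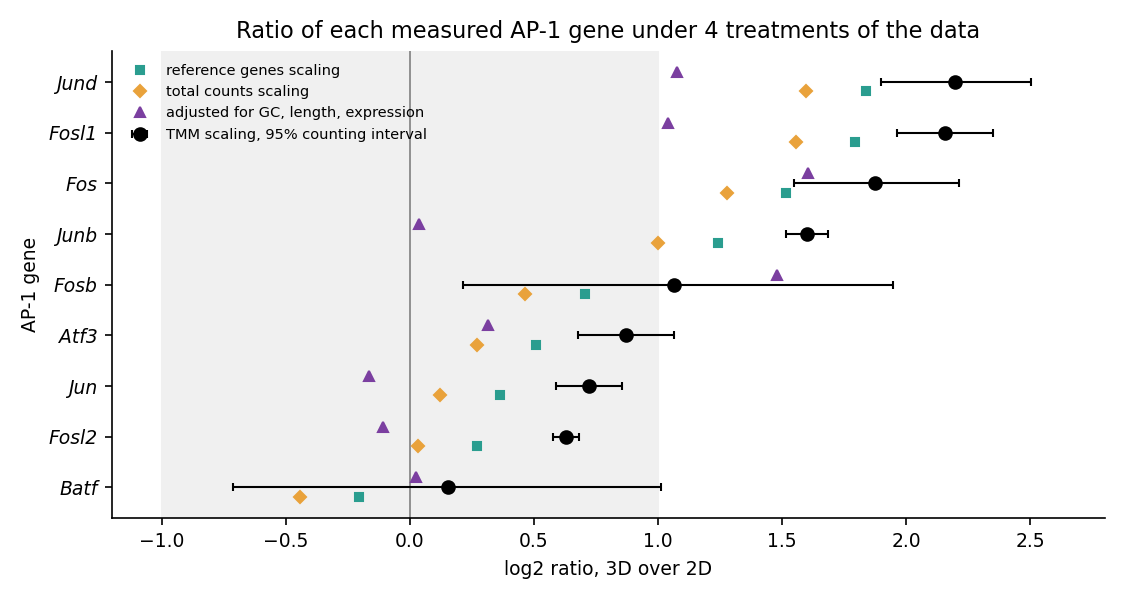
Log2 ratio of the 3D library over the 2D library for the 9 measured AP-1 genes under TMM scaling with its 95% counting interval (black), scaling to reference genes (squares), scaling to total counts (diamonds) and adjusted for GC content, length and expression (triangles). The grey band spans differences under 2-fold. Fos, Fosl1 and Jund lie right of the band in all 4, while Junb moves from 1.60 under TMM scaling to 0.04 after adjustment.

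The ratios of all genes ran along the GC content of their transcripts, which was 51.9% to 67.1% for the 9 measured AP-1 genes. In the 10 equal groups of 10538 measured protein-coding genes by GC content, the median log2 ratio was -1.28 in the group with the lowest GC content and 0.96 in that with the highest. Junb, at 62.6% GC and a log2 ratio of 1.60, lay between the quartiles of the 105 protein-coding genes within 1 percentage point of its GC content, which were 0.60 and 1.67. Jun, at 55.5% GC, had a log2 ratio of 0.72, against a median of 0.74 for 1007 such genes. Fos, at 51.9% GC, stood above the upper quartile of its 1073 neighbours, 0.99, with a log2 ratio of 1.88. Fosl1, at 58.5% GC and 2.15, also stood above that of its 622 neighbours, 1.37. Jund, at 67.1% GC, had only 12 such neighbours, with quartiles of 0.81 and 1.84, and its log2 ratio was 2.20. Fosb, Fosl2 and Atf3 lay between the quartiles of their neighbours. Batf, with a log2 ratio of 0.15, lay below the lower quartile of its 938 neighbours, 0.27.

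Once GC content, exon length and mean expression were adjusted for, Fos (1.61), Fosb (1.48), Jund (1.08) and Fosl1 (1.04) had log2 ratios above 1. Adjusted values carry no counting interval. Fosb rested on 32 counts in 3D and 20 in 2D, and Jund and Fosl1 lay close to the 2-fold limit. Junb stood at 0.04, Atf3 at 0.31, Batf at 0.03, Fosl2 at -0.11 and Jun at -0.16. The 4 genes at least 2-fold higher among 9 compare with 10.5% of all 11666 genes that could be adjusted, and 0 of the 9 and 9.75% of all were at least 2-fold lower. The 9 genes had a median adjusted log2 ratio of 0.31, against 0.02 for all genes. The adjustment takes out technical and biological differences alike where they follow these properties, and they cannot be told apart here.

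**Figure D3:**
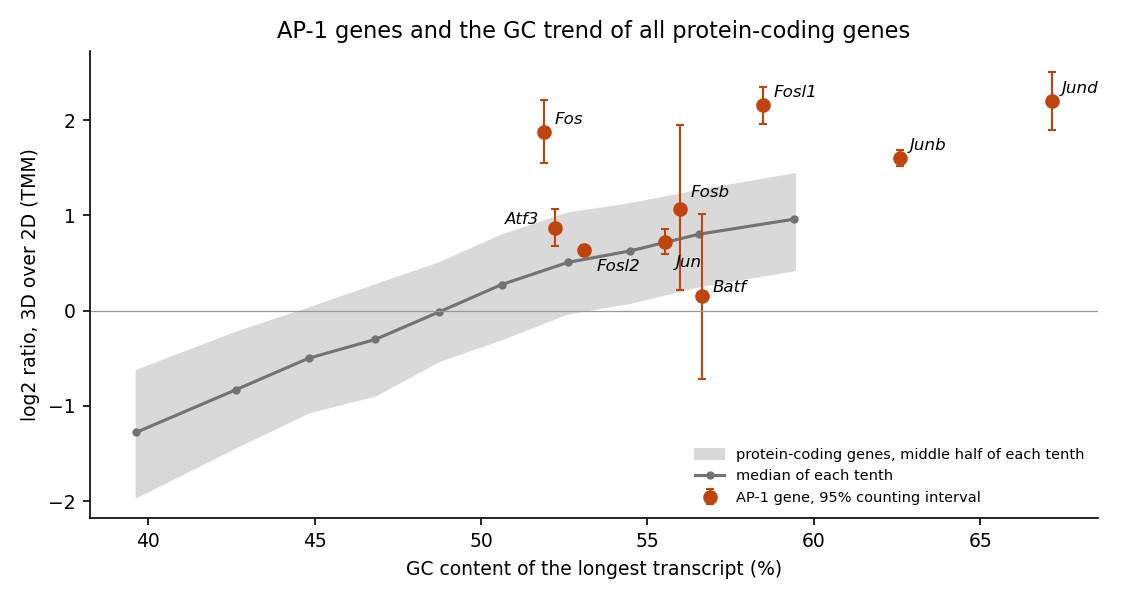
Log2 ratio of the 3D library over the 2D library against GC content of the longest transcript (percent). The grey line and band give the median and quartiles of the ratio in 10 equal groups of protein-coding genes, and red points are the 9 measured AP-1 genes with 95% counting intervals. Fos and Fosl1 stand above the band, and Jun (0.72) lies on the line.

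Comparing genes within each library removes the scaling factor. For a pair of genes, the ratio of their counts in 3D was divided by that in 2D, with an exact conditional 95% interval. Of the 36 pairs of measured AP-1 genes, 15 differed by at least 2-fold and 21 had intervals that did not include 1. The share of such pairs among all measured genes was not computed, so these counts describe the AP-1 genes without a background. Reads of Fosl1 per read of Fosl2 were 0.153 in 3D and 0.0532 in 2D, a 2.88-fold difference (2.50 to 3.31). Reads of Junb per read of Jun were 3.48 in 3D and 1.89 in 2D, a 1.84-fold difference (1.65 to 2.05). For Jund per read of Jun the difference was 2.78-fold (2.21 to 3.51), and for Fos per read of Fosl2 it was 2.37-fold (1.88 to 3.00). The order of the 9 genes by ratio was Jund, Fosl1, Fos, Junb, Fosb, Atf3, Jun, Fosl2 and Batf, and the intervals of all 8 neighbouring pairs in that order included 1. Jund per read of Fosl1, for example, differed 1.03-fold (0.803 to 1.33), and Jun per read of Fosl2 1.07-fold (0.965 to 1.18). After adjustment the difference of Fosl1 and Fosl2 was 1.15 on the log2 scale, and that of Junb and Jun was 0.20.

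The make-up of the FOS and JUN group reads also differed between the libraries. JUN group genes held 40.2% of the 12680 reads of both groups in 3D (exact Clopper-Pearson 95% interval 39.3% to 41.0%) and 30.5% of 8236 in 2D (29.5% to 31.5%). Per read of the FOS group, reads of the JUN group were 1.53-fold more frequent in 3D (1.44 to 1.62). By level per kilobase of exon, the JUN group held 63.2% of the total of both groups in 3D and 57.9% in 2D. The difference in the share was 9.66 percentage points by reads and 5.33 by level per kilobase of exon. It was 0.137 points when each gene's counts were divided by the fitted trend along GC content, length and expression, and the cause was not tested. Within the JUN group, Jun held 20.5% of reads in 3D (19.4% to 21.6%) and 32.9% in 2D (31.1% to 34.8%), and Junb held 71.4% (70.1% to 72.6%) in 3D and 62.4% (60.4% to 64.3%) in 2D. Within the FOS group, Fosl1 held 12.7% of reads (12.0% to 13.5%) in 3D and 4.95% (4.40% to 5.54%) in 2D. Fosl2 held 83.0% (82.2% to 83.9%) in 3D and 92.9% (92.2% to 93.5%) in 2D. Per kilobase of exon, Fosl1 held 37.8% of the FOS group in 3D and 18.9% in 2D, and Fosl2 held 51.9% and 74.6%.

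**Figure D4:**
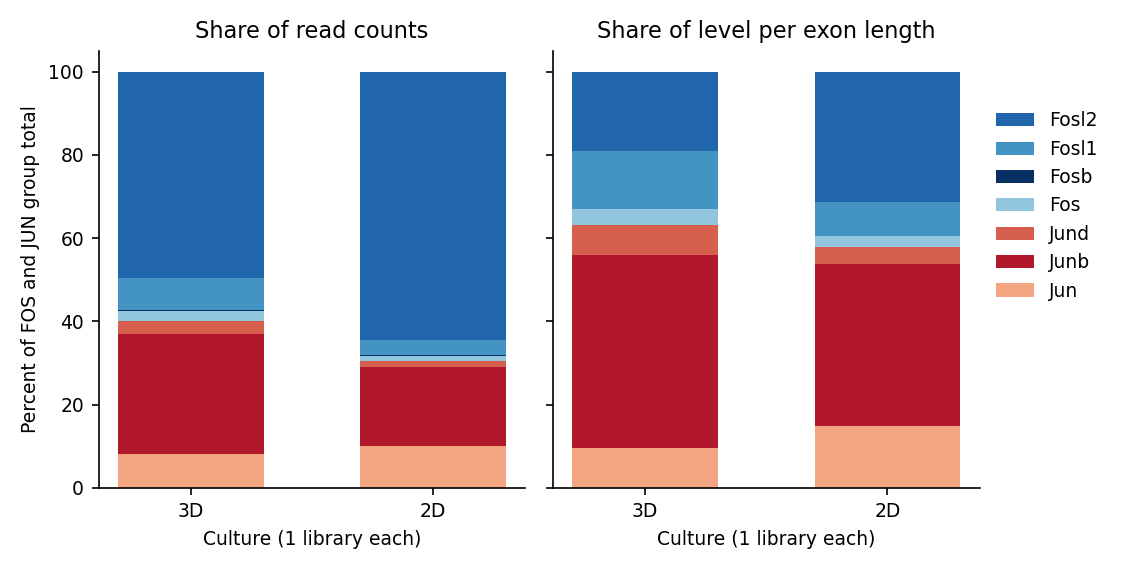
Share of each FOS group gene (blues) and JUN group gene (reds) in the total of both groups, in the 3D and 2D libraries, by read counts (left) and by counts per kilobase of exon (right), in percent. Fosl2 takes 49.7% of reads in 3D and 64.5% in 2D; per length, Junb takes the most in both.

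Levels of different genes were compared per kilobase of exon. Junb was the most abundant AP-1 transcript in both libraries, at 117 CPM per kilobase in 3D (113 to 121) and 38.5 in 2D (36.6 to 40.5). Fosl2 came next, at 48.1 CPM per kilobase in 3D and 31.0 in 2D. Fosl1 followed in 3D, at 35.0 CPM per kilobase, and was the fifth in 2D, at 7.87. Jun stood at 24.2 and Jund at 18.3 CPM per kilobase in 3D, against 14.7 for Jun and 3.31 to 4.79 (counting interval) for Jund in 2D. Atf3 had 17.9 CPM per kilobase in 3D (16.4 to 19.5), which did not differ from Jund (16.6 to 20.2) beyond counting error, and 9.82 in 2D. Fos had 9.17 CPM per kilobase in 3D and 2.50 in 2D. Batf (1.21 in 3D and 1.09 in 2D), Fosb (0.379 and 0.181 in these libraries) and Batf3 (0.0925 and 0.177) were last, and the intervals of Fosb and Batf3 overlapped in both libraries. With the length of the principal transcript in place of all exons, Jund and Atf3 changed places in 3D and Fosb and Batf3 in 2D. The lead of Junb over Fosl2 in 2D was then small, at 49.0 against 46.0 CPM per kilobase.

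Related bZIP genes went both ways. Counts in this and the following lists are to be read against the shares of all measured genes. At least 2-fold higher and lower were 18.7% and 20.8% under TMM scaling, 5.59% and 36.5% under total counts, and 10.5% and 9.75% after adjustment. Of 12 further AP-1-related and MAF-type genes, 7 were measured, 1 was at least 2-fold higher and 1 lower by as much under TMM scaling (0 and 3 under total counts), with a median log2 ratio of -0.39. Maff, a small MAF protein without a transactivation domain and an immediate early gene itself, had 327 counts in 3D and 191 in 2D, a 2.24-fold difference (1.87 to 2.69). Its relative Mafg had 786 counts in 3D and 2006 in 2D, a ratio of 0.512 (0.471 to 0.556), and Mafk had a ratio of 1.20 (1.07 to 1.34). Atf2, which pairs with JUN on cAMP response elements, was at 16.8 CPM in 3D and 49.9 CPM in 2D, a ratio of 0.338 (0.291 to 0.391). Jdp2, a repressor that pairs with JUN, had a ratio of 1.18 (1.09 to 1.28), Atf7 of 0.593 and Creb5 of 0.765. The large MAF gene Maf had 0 counts in both libraries. After adjustment the log2 ratios of Maff and Atf2 were 0.43 and -0.34, and those past 2-fold were Creb5 (1.79, on 24 counts in 3D and 41 in 2D) and Mafg (-1.68).

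Of 17 more distant bZIP genes, 14 were measured, 3 were at least 2-fold higher and 6 lower by as much (3 and 7 under total counts), with a median log2 ratio of -0.67. The higher ones were Cebpb (6.23-fold, 5.35 to 7.28), Atf5 (3.58-fold, 3.19 to 4.04) and Cebpa, on 33 counts in 3D and 14 in 2D (3.08-fold, 1.60 to 6.23). Cebpb and Cebpa encode C/EBP factors of myeloid cells. Among the lower ones were Cebpg, at a ratio of 0.306 (0.262 to 0.357), the stress factor gene Atf4, at 0.475, and Bach1, a heme-regulated repressor, at 0.392 (0.322 to 0.473). Creb1 (0.383), Crem (0.476) and Ddit3 (0.399) made up the 6. After adjustment 2 of the 14 were at least 2-fold higher, Cebpa (log2 ratio 1.49) and Cebpb (1.26), and 3 lower, Atf4 (-2.39), Ddit3 (-1.17) and Nfe2l1 (-1.30), which was not among the 6. Atf5 (0.58), Cebpg (-0.93) and Bach1 (-0.78) no longer reached 2-fold, and Creb1 (0.08) and Crem (0.17) turned direction.

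Genes of the signals that lead to AP-1 were mixed. Of 31 kinase genes of the MAP kinase cascades, 28 were measured, with 7 at least 2-fold higher and 5 lower by as much (2 and 7 under total counts) and a median log2 ratio of 0.39. The higher ones included Map2k2 (4.33-fold, 4.12 to 4.55) and Mapk3 (3.31-fold), which encode the kinases MEK2 and ERK1 of the growth factor branch. Rps6ka4, which encodes the nuclear kinase MSK2, was 3.02-fold higher. The lower ones were Rps6ka5 (ratio 0.414), Map3k1 (0.422), Map3k7 (0.468), Mapk8 (0.427, 0.362 to 0.501), which encodes the JUN kinase JNK1, and Map3k8, which activates MEK in macrophages after Toll-like receptor signals. Map3k8 had 19 counts in 3D and 279 in 2D, a ratio of 0.0890 (0.0528 to 0.142). After adjustment 0 of the 28 were at least 2-fold higher and 2 were lower, Map3k8 (log2 ratio -2.63) and Map3k1 (-1.25). Of 9 factors of serum response elements, which drive Fos and Egr1, Srf (2.35-fold, 2.16 to 2.55) and its coactivator gene Mrtfa (2.47-fold, 2.33 to 2.63) were at least 2-fold higher, while Elk4 (ratio 0.286), Mef2c (0.281) and Mef2a (0.472) were lower by as much (0 and 3 of the 9 under total counts). The median log2 ratio of the 9 was 0.38. Adjusted log2 ratios were -0.09 for Srf, 0.25 for Mrtfa, -0.43 for Mef2c and -0.09 for Mef2a, all under 2-fold, and -1.45 for Elk4.

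Other immediate early genes were higher in part. Of 25 such genes, 23 were measured, 10 were at least 2-fold higher and 1 lower by as much (4 and 5 under total counts), with a median log2 ratio of 0.46. The shares of all measured genes were 18.7% and 20.8% (5.59% and 36.5% under total counts). Besides Egr1, at 214 CPM in 3D and 23.7 CPM in 2D, the ERK phosphatase gene Dusp5 was 5.73-fold higher (4.75 to 6.95), Arc 4.63-fold (3.54 to 6.13) and Egr2 4.36-fold (2.64 to 7.47). The lower one was the nuclear receptor gene Nr4a2, at a ratio of 0.278 (0.169 to 0.440). After adjustment 6 were at least 2-fold higher and 3 lower. Genes of heat shock and handling responses were examined beside them because handling of cells can induce both sets. Of 13 measured, 4 were at least 2-fold higher, Hspa8 (3.32-fold, 3.27 to 3.38), Dnajb1 (2.63-fold), Hspa1b (2.47-fold) and Hsph1 (2.12-fold), and Nfkbiz was lower, at a ratio of 0.160 (0.125 to 0.202). Under total counts 1 was higher and 5 lower, and after adjustment Hspa8 alone was higher (log2 ratio 1.05), while Nfkbiz (-2.58) and Hspd1 (-1.41) were lower. Adjusted values were 0.79 for Dnajb1, 0.60 for Hspa1b and 0.96 for Hsph1. Their summed level was 9982 CPM in 3D and 5687 CPM in 2D, and Hspb1 was at 0 in 3D and Cxcl1 at 0 in both. Their part in the AP-1 values was not tested.

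Genes for the turnover and restraint of AP-1 proteins had a median log2 ratio of -0.39 over 14 measured genes, with 2 at least 2-fold higher and 1 lower (0 and 7 under total counts). All measured genes had shares of 18.7% and 20.8% (5.59% and 36.5% under total counts). The kinase gene Csk was 2.38-fold higher (2.23 to 2.54). Fbxw7, the ubiquitin ligase subunit that recognises JUN, was at a ratio of 0.459 (0.388 to 0.540). After adjustment neither Csk nor Fbxw7 kept a 2-fold difference, and Cop1, with a log2 ratio of -0.34 before and 1.67 after it, was the gene at least 2-fold higher.

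Of 40 genes reported as AP-1 targets in the field, 27 were measured, 14 were at least 2-fold higher and 1 lower by as much, with a median log2 ratio of 1.06. Large ratios were those of Mmp9 (21.5-fold, 18.4 to 25.3), which encodes a gelatinase, the heme oxygenase gene Hmox1 (12.8-fold, 12.4 to 13.2) and the intermediate filament gene Vim (5.28-fold, 5.21 to 5.35). Plau, which encodes urokinase, stood at 1922 CPM in 3D and 1929 CPM in 2D. Spp1, which encodes osteopontin, had a ratio of 0.881 (0.872 to 0.890), and the one gene at least 2-fold lower was Mmp2, on 11 counts in 3D and 33 in 2D. After adjustment 8 were at least 2-fold higher, among them Mmp9 (log2 ratio 3.46), Hmox1 (1.97) and Vim (1.56). The 4 lower by as much were Tnf (-1.73), Csf1 (-1.37), Plau (-1.13) and Spp1 (-1.05), while Mmp2 stood at -0.87. Under total counts the numbers higher and lower were 7 and 4. Shares of all measured genes were 18.7% higher and 20.8% lower under TMM scaling. They were 10.5% and 9.75% after adjustment, and 5.59% and 36.5% under total counts. Many of these genes have other regulators, and the list says nothing of which factor acts on them here.

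**Figure D5:**
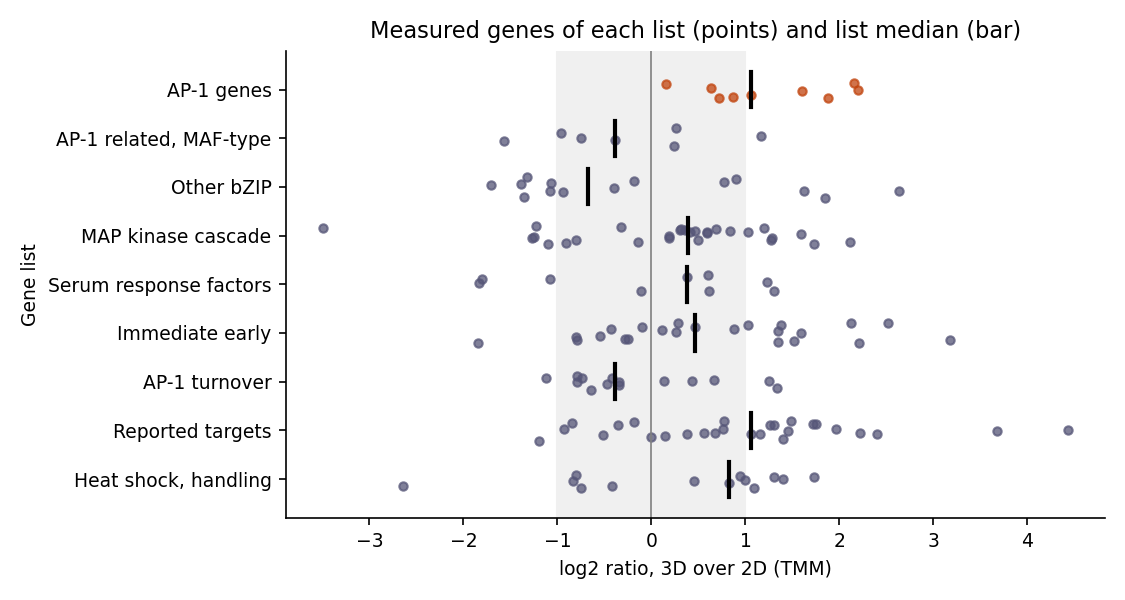
Log2 ratio of the 3D library over the 2D library for each measured gene of the AP-1 genes (red) and of 8 related lists, with the median of each list as a black bar; the grey band spans differences under 2-fold. AP-1 genes and reported targets have medians of 1.06, and the bZIP lists have medians of -0.39 and -0.67.

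The AP-1 element TGANTCA was present in the 300-base promoter of 7 of the 29 target genes that the RefSeq table held, or 24.1%, against 8.97% of all 27025 genes in it; these targets were listed for reported AP-1 regulation. Mmp3, Mmp13 and Il6 of these 7 had 0 counts in both libraries, and Mmp12 had 9 counts in 3D and 2 in 2D. The 3 that were measured, Plaur, Itgax and Il1rn, are shown with 17 bases on each side of the element, in capitals, on GRCm38.p6. They lie at chr7:24462397-24462437, chr7:128129477-128129517 and chr2:24336702-24336742, all on the plus strand, with the first base of the element at -69, -56 and -141 from the start.
Plaur: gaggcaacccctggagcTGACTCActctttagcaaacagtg
Itgax: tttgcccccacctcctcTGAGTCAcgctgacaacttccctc
Il1rn: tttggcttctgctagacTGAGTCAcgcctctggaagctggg

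Plaur, which encodes the urokinase receptor, had 1699 counts in 3D and 928 in 2D, a 2.39-fold difference (2.21 to 2.59). Itgax, the integrin gene for CD11c, had 812 counts in 3D and 323 in 2D, a 3.29-fold difference (2.88 to 3.75). Il1rn, which encodes the interleukin-1 receptor antagonist, had 5974 counts in 3D and 2962 in 2D, a 2.64-fold difference (2.52 to 2.76). All 3 were at least 2-fold higher under TMM scaling, as were 6 of the 14 measured targets with a promoter in the table and no such element. Under total counts only Itgax of the 3 was (2.17-fold), with Plaur at 1.58 and Il1rn at 1.74, and 2 of the 14 were. Adjusted log2 ratios were 0.41 for Plaur, 1.43 for Itgax and 1.79 for Il1rn, and 2 of the 14 had one of at least 1. A match in the window is a description of the sequence and does not show binding.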

How the data were processed

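Per the labels' protocols, TRIzol was used for total RNA and a TruSeq stranded mRNA kit for the libraries. The authors deposited read counts per Ensembl gene, with Trimmomatic, HISAT2, HTSeq and the build mm10 named in the submitters' processing notes. The sources used here give no version, setting, strand option or annotation release. No row lacked a gene. Of 52550 identifiers, 52403 (99.7%) matched GENCODE M21, which gave symbols, positions, exon lengths and GC content.

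Counts were scaled with TMM factors (edgeR 4.0.16, R 4.3.3), 0.813 for 3D and 1.23 for 2D. Ratios have exact conditional (Clopper-Pearson) 95% intervals. A count of 0 allows up to 3 counts, or 0.18 CPM by total in 3D and 0.209 in 2D. At least 2-fold, higher or lower, was taken as a difference of size. Adjusted values are residuals from natural cubic splines (patsy 1.0.2, 4 degrees of freedom). The code was tested on simulated counts.

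The members and lists were chosen with earlier results of these data known. All 10 members are named, and up to 4 genes of each list with the largest ratios past 2-fold; others that complete a count, carry an element in their promoter or stand apart from their list were named after their values were seen. Some list genes are not reported here by name. No library could be left out, with 1 per group. Alternatives were other scalings (DESeq2 1.42.0 size factors, total counts, upper quartile, reference genes), filters, thresholds, a pseudocount, thinning and protein-coding genes only.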

Additional observations from a re-analysis of the deposited data

How the results depend on the processing

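None of the 5 AP-1 genes at least 2-fold higher under TMM scaling changed direction under the 13 alternatives run, and 0 of those measured were at least 2-fold lower under each. The count of 5 became 8 at a 1.5-fold limit and 2 at a 4-fold limit, and was 4 or 5 otherwise; Fosb was the gene lost under total counts, the reference genes, the pseudocount of 1 CPM, the interval bound and the minimum of 5 CPM, and Junb under the adjustment. Of 72 log2 ratios of single AP-1 genes under the 8 alternatives that can move a ratio, 51 stayed within their counting interval and 21 moved beyond it. Among all genes, 657 were higher and 4292 lower under total counts, 1122 higher under the reference genes, 3939 lower with no filter, 3701 higher at 1.5-fold, 260 higher and 779 lower at 4-fold, and 1227 higher and 1138 lower after adjustment; the median log2 ratio shifted by -0.60 under total counts and by -0.36 under the reference genes. The difference of 9.66 points in the JUN group share was 5.33 per kilobase of exon, 7.37 per kilobase of the principal transcript (chosen after seeing the data) and 0.137 after division by the fitted trend. Batf, which was not called, turned to a log2 ratio of -0.44 under total counts, -0.20 under the reference genes and -0.08 with thinned counts, and Fosl2 (-0.11) and Jun (-0.16) turned after adjustment. Pairs at least 2-fold different numbered 15, or 18 after adjustment, where 9 of the 36 turned direction. No paired analysis was possible because each group had 1 library. Depth limited Fosb, Batf and Batf3.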
